A study of Mus musculus with 48 samples.

Results

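Slc28a1, Hhipl1, Fam171b, Il5ra, Clip4 and Ksr2 are 6 of the 55487 genes in the count table, chosen for the largest differences in RNA between kidney slices kept with tunicamycin for 24 h and their 24 h controls. They were selected on that comparison: a gene had to pass an adjusted p-value of 0.05, reach a mean log2 CPM (counts scaled by the library's total) of 1, and have, in each strain, no overlap between treated and control libraries, with the same sign in both. The rule was met by 100 genes that were higher and 56 that were lower, predicted and unnamed genes left aside, and the 3 largest log2 fold changes in each direction were taken. Slc28a1, Hhipl1 and Fam171b were higher with tunicamycin, and Il5ra, Clip4 and Ksr2 were lower. Values of the 6 genes that involve the 24 h control or 24 h tunicamycin libraries are therefore given as a description without a test. Tests on the 6 genes use the other 36 of 48 libraries.

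The slices came from male mice of 2 inbred strains, C57BL/6J and DBA/2J. Each strain was kept outside the body under 8 conditions: control, tunicamycin or cyclosporin A for 6 h, the same 3 for 24 h, normoxia (labelled as the model of ischemia), and normoxia-hyperoxia (labelled as the model of reperfusion). The titles give 24 h for the last 2 conditions. Each of the 16 groups held 3 libraries numbered as biological replicates. Drug doses, oxygen levels, the age of the mice and whether slices of a strain came from separate mice are not given in the labels, so the p-values measure the spread between these libraries only.

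Tunicamycin blocks the first step of N-linked glycosylation, so that unfolded glycoproteins gather in the endoplasmic reticulum and the unfolded protein response is switched on. The 6 genes have no shared textbook pathway. Slc28a1 encodes CNT1, a sodium-coupled carrier that takes pyrimidine nucleosides up across the apical membrane of the proximal tubule. Hhipl1 encodes a protein related to the hedgehog-interacting protein, and Fam171b a membrane protein whose function is little known. Il5ra encodes the alpha chain of the interleukin-5 receptor, known from eosinophils and a class of B cells, which signals together with the common beta chain Csf2rb. Clip4 encodes a protein with CAP-Gly domains, a type of domain that binds microtubules. Ksr2 encodes a scaffold that holds RAF, MEK and ERK kinases together and is known from the control of energy balance.

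In GENCODE M21 (GRCm38) all 6 are protein-coding genes. Slc28a1 (ENSMUSG00000025726) spans chr7:81114799-81170416 on the plus strand, Hhipl1 (ENSMUSG00000021260) chr12:108306270-108330869 on the plus strand, and Fam171b (ENSMUSG00000048388) chr2:83812636-83883486 on the plus strand. Il5ra (ENSMUSG00000005364) spans chr6:106710357-106749037 on the minus strand, Clip4 (ENSMUSG00000024059) chr17:71768473-71864273 on the plus strand, and Ksr2 (ENSMUSG00000061578) chr5:117414000-117775003 on the plus strand. The antisense gene 4930478K11Rik lies within Hhipl1, and the processed pseudogene Ndufs6b lies within Slc28a1 on the other strand. The libraries were made with a stranded kit, but the strand setting of the counting is not given in the sources used here, so reads of these pairs could have been assigned to either. The provisional transcript model Gm42550 lies within Ksr2 on the same strand.

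RefSeq start sites (GRCm38.p6) were found for 5 of the 6 genes, and Clip4 has 3 of them. The set of promoters used here held no entry for Fam171b, which does not show that RefSeq has none. The 250 bases before the start are shown for 2 of the genes that were higher and 2 that were lower, to let the promoters be compared for elements of the unfolded protein response. They lie at chr7:81114549-81114798 (Slc28a1, plus strand), chr12:108306020-108306269 (Hhipl1, plus strand), chr6:106749038-106749287 (Il5ra, minus strand) and chr5:117413752-117414001 (Ksr2, plus strand). Each is written 5′ to 3′ in lower case, and capitals mark a match to a searched motif.
Slc28a1: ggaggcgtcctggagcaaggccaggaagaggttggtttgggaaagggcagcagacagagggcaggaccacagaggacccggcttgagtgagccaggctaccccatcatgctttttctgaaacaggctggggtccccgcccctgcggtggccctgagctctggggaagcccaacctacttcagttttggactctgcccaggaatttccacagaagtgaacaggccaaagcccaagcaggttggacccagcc
Hhipl1: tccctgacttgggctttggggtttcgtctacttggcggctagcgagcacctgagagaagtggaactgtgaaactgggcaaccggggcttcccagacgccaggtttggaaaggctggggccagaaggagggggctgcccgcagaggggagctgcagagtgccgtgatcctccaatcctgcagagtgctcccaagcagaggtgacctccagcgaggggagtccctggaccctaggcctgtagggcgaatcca
Il5ra: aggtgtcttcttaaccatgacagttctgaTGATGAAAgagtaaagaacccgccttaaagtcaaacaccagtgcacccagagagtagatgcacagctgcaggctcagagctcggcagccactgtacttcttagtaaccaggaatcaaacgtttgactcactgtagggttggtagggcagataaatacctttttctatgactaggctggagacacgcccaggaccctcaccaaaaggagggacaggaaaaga
Ksr2: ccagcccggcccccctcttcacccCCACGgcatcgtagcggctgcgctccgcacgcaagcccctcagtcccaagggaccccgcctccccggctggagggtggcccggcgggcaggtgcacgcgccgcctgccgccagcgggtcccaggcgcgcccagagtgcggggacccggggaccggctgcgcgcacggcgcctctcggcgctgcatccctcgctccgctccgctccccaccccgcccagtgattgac

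The search covered 250 bases before to 50 bases after each start, on both strands. A match to TGATGNAA, an element that ATF4 and CEBP proteins are known to bind, was found in Il5ra at position -221 relative to the start, and 3.97% of the 32851 RefSeq promoters of this length hold such a match. A match to CCACG, a part of the endoplasmic reticulum stress elements, was found in Ksr2 at position -226, and 32.8% of the promoters hold it. No match was found in the 7 windows of the 5 genes to TGACGTGG, the core of the unfolded protein response element (0.676% of promoters), or to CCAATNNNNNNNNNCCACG, the endoplasmic reticulum stress element (0.119%). TATAAA (13.6%), GTTAAT (7.1%) and CAAAGTCC (1.42%), which are the TATA box and motifs of the tubular factors HNF1 and HNF4, were not found either. CCACG overlaps both stress elements, since it is part of the longer one and of the reverse complement of TGACGTGG. These are matches of letters only.

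The libraries held 5619309 to 25137581 counts, with a median of 19607361. Normoxia-hyperoxia replicate 2 of DBA/2J had the lowest total, below 12384733 in the next library. Kidney markers were present throughout: none of the 8 proximal tubule markers, including Lrp2, Cubn and Slc34a1, was at 0 in all libraries of any group. At 24 h of tunicamycin 0 markers of tubule segments, podocytes, endothelium, fibroblasts and macrophages were called, with each listed marker tested. Only 4 of 6 B and plasma cell, 2 of 7 neuron and glia and 1 of 8 eosinophil markers passed the filter on low counts there, and 0 of these were called. The unfolded protein response list, 20 genes led by Herpud1 (0.94), Creld2 (0.92) and the stress factor Ddit3 (0.82), held 17 that rose and 0 that fell there (edgeR quasi-likelihood test, Benjamini-Hochberg), with a median log2 fold change of 0.57 beside 0.01 over all genes tested. In the same comparison 233 of 16905 genes passed the threshold, or 1.38%, and all 6 selected genes are among them by construction. These counts depend on single libraries. Calls over all genes fell to 107, 97 and 101 without C57BL/6J control replicate 1, 2 or 3, to 125 and 93 without DBA/2J control replicate 1 or 3, to 78 and 111 without C57BL/6J tunicamycin replicate 1 or 2, and to 134 without DBA/2J tunicamycin replicate 1. Over all pathway and marker lists 18 genes were called, and 9 to 11 without C57BL/6J control replicate 2 or 3, DBA/2J control replicate 3 or C57BL/6J tunicamycin replicate 1 or 2. The unfolded protein response list also moved without tunicamycin. From 6 h to 24 h of cyclosporin A 15 of 20 rose and 3 fell (median 0.73), where 70% of all genes were called. Under normoxia against 6 h controls 4 rose and 15 fell (-0.60), where 65.8% were called. At 6 h of tunicamycin 0 of 20 were called (-0.01), as were 0% of all genes.

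Fam171b, the last of the 3 higher genes, had a log2 fold change of 2.08. Next came Cox6a2 at 1.99, then Fkbp11 at 1.52 and Car6 at 1.43. Ksr2, the last of the 3 lower genes, stood at -1.26, followed by Crct1 at -1.22 and Il24 at -1.07. The steps from these to the next gene were smaller than the standard errors, which were 0.26 for Fam171b and 0.20 for Ksr2.

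Levels between genes are compared per kilobase of exon. Averaged over the 48 libraries, Clip4 had 2.47 CPM per kilobase, Slc28a1 1.35, Il5ra 0.832, Fam171b 0.769, Ksr2 0.629 and Hhipl1 0.203. Hhipl1 had the lowest of these pooled means, which include the libraries that chose the genes, but not the lowest level in each group: in C57BL/6J 24 h controls it had 0.301 CPM per kilobase and Slc28a1 0.220. It had 0 to 3 counts in each DBA/2J library of tunicamycin at 6 h and 2 to 3 in each of normoxia-hyperoxia. Those 2 groups lay at the floor of 3 counts, and fitted folds against them depend on the prior count.

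**Figure D1:**
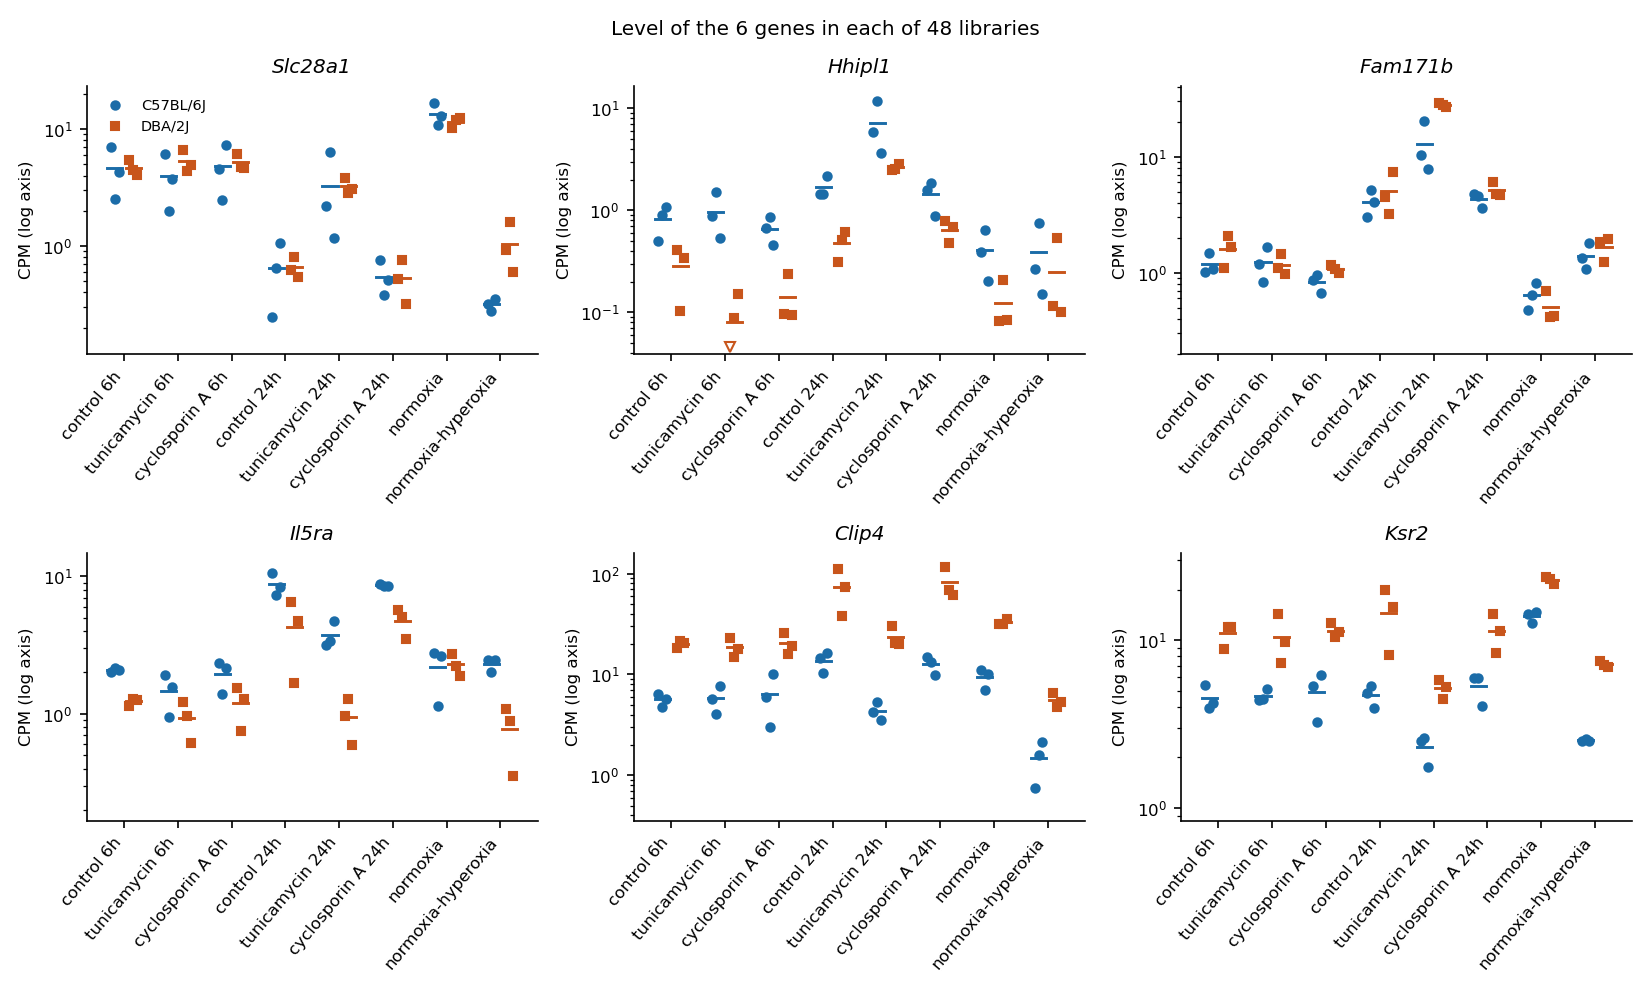
CPM of each gene in the 48 libraries on log axes, by condition, with circles for C57BL/6J, squares for DBA/2J and a bar at the mean of each group of 3 libraries; the open triangle marks a library with 0 counts, drawn at the bottom of the panel. Hhipl1 and Fam171b were highest with tunicamycin at 24 h, Slc28a1 and Ksr2 under normoxia, and Il5ra and Clip4 in the 24 h control and cyclosporin A libraries.

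Slc28a1, the nucleoside carrier, had 2.19, 6.35 and 1.17 CPM in the 3 C57BL/6J slices with tunicamycin for 24 h, and 0.249, 0.649 and 1.05 CPM in their controls. In DBA/2J the values were 3.84, 2.83 and 3.07 CPM with tunicamycin and 0.624, 0.812 and 0.541 CPM in the controls. The groups did not overlap in either strain, although the lowest treated C57BL/6J library lay just above the highest control. The log2 fold change was 2.42 in C57BL/6J (SE 0.58) and 2.29 in DBA/2J (SE 0.57). It stayed between 1.89 and 2.56 for both strains together when normalization, filter, test or a library was changed.

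This difference appeared against a loss over time. Slc28a1 stood in controls at 6 h at 4.63 ± 2.27 CPM (C57BL/6J) and 4.63 ± 0.702 CPM (DBA/2J), and at 0.649 ± 0.400 and 0.659 ± 0.139 CPM at 24 h (SD, n = 3). With tunicamycin at 24 h it stood at 3.24 ± 2.74 and 3.25 ± 0.52 CPM (SD, n = 3), between these levels. Its highest levels were those of normoxia, 13.47 ± 2.93 CPM for C57BL/6J and 11.5 ± 1.21 CPM for DBA/2J (SD, n = 3). No library of another condition reached them. Below normoxia, the 6 groups at 6 h ranged from 3.94 ± 2.06 to 5.30 ± 1.19 CPM (SD, n = 3), and neighbours in the order overlapped. At the bottom, cyclosporin A at 24 h gave 0.547 ± 0.187 CPM for C57BL/6J and 0.533 ± 0.223 CPM for DBA/2J, and normoxia-hyperoxia gave 0.317 ± 0.0372 and 1.04 ± 0.511 CPM (SD, n = 3).

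In the libraries that did not choose the genes, Slc28a1 fell with time under cyclosporin A, with a log2 change of -3.45 from 6 h to 24 h (SE 0.30, edgeR adjusted p = 4.24e-07). It rose under normoxia against 6 h controls by 1.44 (SE 0.18, edgeR adjusted p = 1.05e-05). From normoxia to normoxia-hyperoxia it fell by 4.63 (SE 0.19, edgeR adjusted p = 8.90e-12), and in each of these comparisons the groups did not overlap within either strain. In that last comparison the fall was larger in C57BL/6J, -5.40 against -3.85 in DBA/2J, and the difference between the strains was 1.55 (SE 0.44, edgeR adjusted p = 0.0249). The C57BL/6J libraries held 6 to 7 counts under normoxia-hyperoxia and the DBA/2J libraries 9 to 16. The adjusted p of the strain difference became 0.0528 without DBA/2J normoxia-hyperoxia replicate 2, the shallowest library, 0.0625 without replicate 1 of that group and 0.0556 without C57BL/6J normoxia-hyperoxia replicate 2, and 0.16 in a single fit of all 48 libraries. The difference itself was 1.36, 1.52, 1.46 and 1.66 in these fits, in the same order.

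Proximal tubule markers moved with Slc28a1 in several comparisons. Under cyclosporin A from 6 h to 24 h, 8 of 8 markers fell with a median of -2.61. There 6 of 6 loop of Henle and distal convoluted tubule (-2.115), 7 of 7 collecting duct (-1.78) and 5 of 5 podocyte markers (-1.23) fell too. Under normoxia against 6 h controls 7 of 8 proximal tubule markers rose with a median of 1.03, and from normoxia to normoxia-hyperoxia 8 of 8 fell with a median of -4.61. Of all genes, 70%, 65.8% and 73.5% were called in these comparisons in either direction. Their medians over all genes tested lay between -0.02 and 0.02. At 24 h of tunicamycin 0 of 8 were called, with a median of 0.14. The summed CPM of the markers ranged from 252 to 1335 with tunicamycin at 24 h and from 401 to 608 in controls of C57BL/6J. The DBA/2J ranges were 1110 to 1602 and 975 to 2083. Per 1000 CPM of these markers, Slc28a1 stood at 3.81 to 4.75 CPM with tunicamycin and at 0.62 to 1.77 CPM in 24 h controls of C57BL/6J, and at 1.94 to 2.55 against 0.300 to 0.833 CPM in DBA/2J. The highest such value of any other condition was 2.09 in C57BL/6J, under normoxia, and 2.19 in DBA/2J, in the shallowest library, which lies within the treated range. In bulk RNA, fewer proximal tubule cells and less RNA per cell cannot be told apart, and the part of the markers in the levels of Slc28a1 was not tested.

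Of the other nucleoside transport and pyrimidine salvage genes, 0 of 19 tested were called at 24 h of tunicamycin, with a median log2 fold change of -0.04. Slc29a1, the equilibrative nucleoside carrier, stood at 0.14 (edgeR adjusted p = 0.581). From 6 h to 24 h of cyclosporin A, 8 of 19 rose and 5 fell, near the 70% called among all genes, with Slc29a1 at -1.10 (edgeR adjusted p = 4.20e-08). Under normoxia, where Slc28a1 rose, Slc29a1 fell by 0.60 (edgeR adjusted p = 4.08e-05), and from normoxia to normoxia-hyperoxia, where Slc28a1 fell, it rose by 0.48 (edgeR adjusted p = 0.000221).

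**Figure D2:**
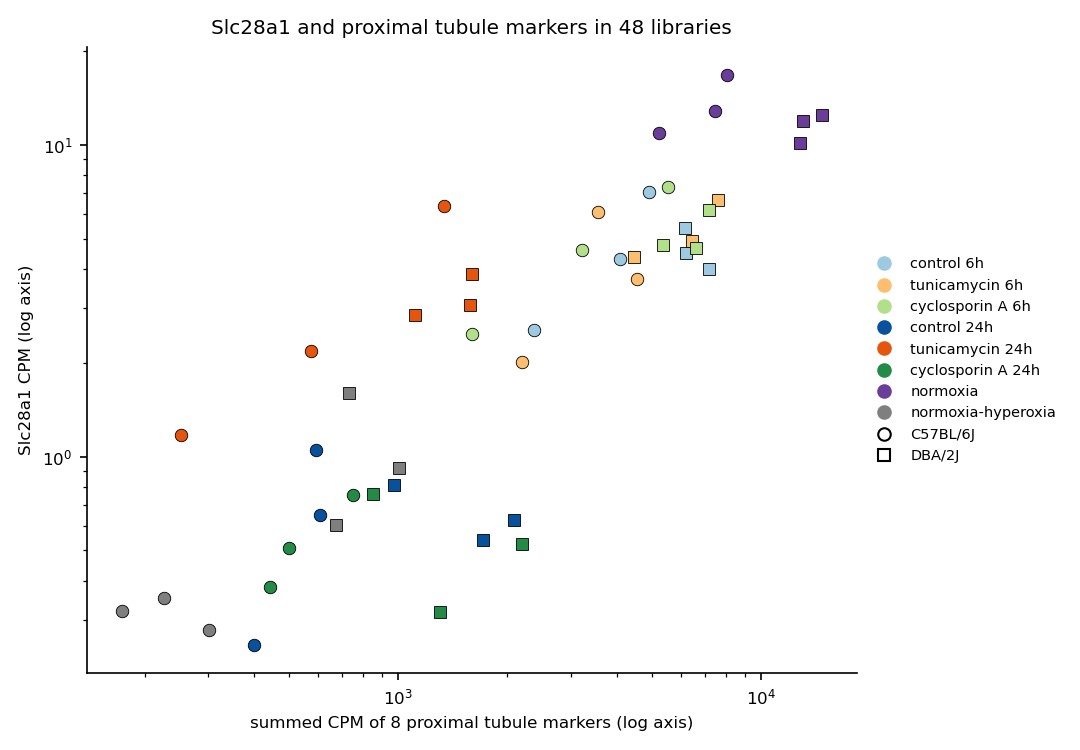
Slc28a1 CPM against the summed CPM of 8 proximal tubule markers, 1 point per library, on log axes, with colours for conditions, circles for C57BL/6J and squares for DBA/2J. The 24 h tunicamycin libraries lie above the 24 h controls of their strain, at marker sums that overlap those of the controls.

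Hhipl1, the relative of the hedgehog-interacting protein, had 5.94, 11.8 and 3.67 CPM in C57BL/6J with tunicamycin for 24 h, and 1.44, 1.44 and 2.18 CPM in the controls. In DBA/2J it had 2.51, 2.57 and 2.85 CPM with tunicamycin, from 53 to 58 counts, and 0.312, 0.507 and 0.609 CPM in the controls, from 6 to 10 counts. Every treated library stood above all controls of its strain, and C57BL/6J was the higher strain in both conditions. The log2 fold change was 2.12 in C57BL/6J (SE 0.37) and 2.50 in DBA/2J (SE 0.45).

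The 24 h tunicamycin groups held the first and second place of the 16 for Hhipl1, with 7.15 ± 4.22 and 2.65 ± 0.18 CPM (SD, n = 3), and neither overlapped the group below it in the order. The next were C57BL/6J at 24 h, with 1.69 ± 0.43 CPM in controls and 1.44 ± 0.49 CPM with cyclosporin A (SD, n = 3). From the third place down all neighbours overlapped. The C57BL/6J groups at 6 h ranged from 0.664 ± 0.198 to 0.973 ± 0.490 CPM and the oxygen groups of that strain from 0.391 ± 0.321 to 0.414 ± 0.221 CPM (SD, n = 3). DBA/2J stood at 0.648 ± 0.158 CPM with cyclosporin A and 0.476 ± 0.151 CPM in controls at 24 h (SD, n = 3). Its 6 h and oxygen groups ranged from 0.080 ± 0.077 to 0.286 ± 0.162 CPM (SD, n = 3).

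Outside the 24 h tunicamycin slices Hhipl1 rose with time under cyclosporin A by 1.33 on the log2 scale (SE 0.33, edgeR adjusted p = 0.00279). The groups separated in DBA/2J, where 2 to 5 counts at 6 h became 10 to 15. In C57BL/6J the lowest 24 h library, 0.890 CPM, lay just above the highest 6 h library, 0.857 CPM, and with the library factors of the fit the groups overlapped. Under normoxia its log2 change against 6 h controls was -1.10 (SE 0.43, edgeR adjusted p = 0.0346), with overlapping groups in both strains. That call was lost in 8 of 12 fits that left out a library, with adjusted p from 0.0618 to 0.132, and held only without C57BL/6J control 6 h replicate 1, DBA/2J control 6 h replicate 2 or replicate 2 of normoxia in either strain. DESeq2 gave an adjusted p of 0.0705. Between normoxia and normoxia-hyperoxia the value was 0.16 (SE 0.57, edgeR adjusted p = 0.813), a fit that rests in DBA/2J on 2 to 4 counts per library.

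Of the hedgehog list, 14 of 17 genes could be tested at 24 h of tunicamycin and 0 were called, with a median log2 fold change of 0.05. Hhip itself, the namesake of the family, did not pass the filter on low counts. From 6 h to 24 h of cyclosporin A, 3 of 14 rose and 4 fell, where 70% of all genes were called in either direction. Of 13 tested under normoxia against 6 h controls, 3 rose and 5 fell, where 65.8% were. Neither share lies above that of all genes.

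Fam171b, the membrane protein, had 10.4, 20.2 and 7.77 CPM in C57BL/6J with tunicamycin for 24 h, and 3.04, 5.15 and 4.04 CPM in the controls. In DBA/2J it had 29.01, 28.03 and 26.97 CPM with tunicamycin and 4.53, 3.20 and 7.31 CPM in the controls. Treated and control groups did not overlap, and the 3 treated DBA/2J libraries stood close together, whereas those of C57BL/6J spread widely. The log2 fold change was 1.65 in C57BL/6J (SE 0.37) and 2.52 in DBA/2J (SE 0.36).

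As for Hhipl1, tunicamycin at 24 h gave the 2 highest groups for Fam171b, 28 ± 1.02 CPM for DBA/2J and 12.8 ± 6.53 CPM for C57BL/6J (SD, n = 3). Here DBA/2J was the higher strain, and the groups did not overlap each other or those below. The 24 h control and cyclosporin A groups followed, from 4.07 ± 1.06 CPM in C57BL/6J controls to 5.14 ± 0.76 CPM in DBA/2J with cyclosporin A (SD, n = 3), and overlapped among themselves. A gap separated them from the rest. The groups at 6 h ranged from 0.83 ± 0.1503 to 1.61 ± 0.49 CPM, and normoxia-hyperoxia gave 1.41 ± 0.376 CPM for C57BL/6J and 1.68 ± 0.381 CPM for DBA/2J (SD, n = 3). Normoxia was lowest, with 0.647 ± 0.168 and 0.511 ± 0.160 CPM (SD, n = 3).

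Fam171b rose with time under cyclosporin A by 2.02 on the log2 scale (SE 0.16, edgeR adjusted p = 2.33e-07). Against 6 h controls it fell under normoxia, with a log2 change of -1.23 (SE 0.26, edgeR adjusted p = 0.000616), and rose from normoxia to normoxia-hyperoxia by 1.34 (SE 0.25, edgeR adjusted p = 0.00018). In these 3 comparisons the groups separated in both strains. At 24 h of tunicamycin 0 of its 2 relatives were called: Fam171a1 had a log2 fold change of -0.19 (edgeR adjusted p = 0.137) and Fam171a2 of 0.13 (edgeR adjusted p = 0.753). Under normoxia against 6 h controls, where Fam171b fell, Fam171a1 rose by 0.63 (edgeR adjusted p = 6.58e-07).

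Il5ra, the receptor chain, had 3.17, 3.39 and 4.76 CPM in C57BL/6J with tunicamycin for 24 h, and 10.7, 7.28 and 8.40 CPM in the controls. In DBA/2J it had 0.959, 1.28 and 0.592 CPM with tunicamycin and 6.504, 1.67 and 4.74 CPM in the controls. DBA/2J control replicate 2 was the lowest control by far and lay just above the highest treated library. The log2 fold change was -1.24 in C57BL/6J (SE 0.38) and -2.14 in DBA/2J (SE 0.44). For both strains together it ranged from -1.89 without DBA/2J control replicate 2 to -1.46 without replicate 1 of that group.

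Il5ra was highest in the 24 h control and cyclosporin A slices of C57BL/6J, with 8.78 ± 1.72 CPM in controls and 8.60 ± 0.17 CPM with cyclosporin A, above 4.76 ± 1.11 and 4.31 ± 2.44 CPM with cyclosporin A and in controls of DBA/2J (SD, n = 3). The treated C57BL/6J group stood next at 3.77 ± 0.86 CPM, above the 6 h controls of its strain at 2.08 ± 0.06 CPM (SD, n = 3). The treated DBA/2J group stood at 0.945 ± 0.346 CPM beside 1.23 ± 0.08 CPM in the 6 h controls (SD, n = 3), and these overlapped. The remaining groups lay between 0.777 ± 0.383 CPM, in DBA/2J under normoxia-hyperoxia, and 2.32 ± 0.25 CPM, in C57BL/6J under normoxia-hyperoxia (SD, n = 3), with overlap between all neighbours.

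Il5ra rose with time under cyclosporin A by 1.78 on the log2 scale (SE 0.20, edgeR adjusted p = 3.79e-06), and the groups separated in both strains. Under normoxia against 6 h controls the value was 0.51 (SE 0.21, edgeR adjusted p = 0.048), with a value of 1.01 in DBA/2J, where the groups separated, and overlapping groups in C57BL/6J. That call was lost in 9 of 12 fits that left out a library, with adjusted p from 0.0546 to 0.123, and held only without C57BL/6J control 6 h replicate 2, C57BL/6J normoxia replicate 2 or DBA/2J normoxia replicate 3. DESeq2 gave 0.0632, a single fit of all libraries 0.0768 and the fit with the replicate number as a block 0.0563. From normoxia to normoxia-hyperoxia Il5ra fell by 0.86 (SE 0.28, edgeR adjusted p = 0.0105). The strains differed in this effect: 0.07 in C57BL/6J and -1.80 in DBA/2J, a difference of -1.86 (SE 0.55, edgeR adjusted p = 0.0295). DBA/2J had 2.74, 2.24 and 1.89 CPM under normoxia and 1.09, 0.890 and 0.351 CPM under normoxia-hyperoxia, while C57BL/6J had 2.76, 1.14 and 2.65 CPM against 2.45, 2.03 and 2.47 CPM. The strain difference ranged from -2.42 to -1.36 over the 12 fits that left out a library. It lost its call in 7 of them, with adjusted p up to 0.0927, and held only without C57BL/6J normoxia replicate 1 or 3, DBA/2J normoxia replicate 3, C57BL/6J normoxia-hyperoxia replicate 2 or DBA/2J normoxia-hyperoxia replicate 1.

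Of the interleukin-5 receptor list, 0 of 11 genes tested were called at 24 h of tunicamycin, and Csf2rb, the shared signalling chain, had a log2 fold change of 0.21 (edgeR adjusted p = 0.74). From normoxia to normoxia-hyperoxia 12 of 12 rose with a median of 1.59, where 73.5% of all genes were called in either direction, and Csf2rb rose by 2.77 (edgeR adjusted p = 8.92e-11). In the same comparison 5 of 6 macrophage markers rose (median 0.72), as did 5 of 5 podocyte (1.20) and 5 of 6 endothelial markers (1.07), and their part in the list's change was not tested. With normoxia against 6 h controls 8 of 11 fell and 0 rose, where 65.8% of all genes were called in either direction, and Csf2rb stood at -1.85 (edgeR adjusted p = 1.43e-06). There 5 of 5 podocyte (median -1.31), 6 of 6 endothelial (-0.87) and 7 of 7 fibroblast and smooth muscle markers (-1.41) fell too. Of the macrophage markers, 3 of 6 rose and 1 fell (0.20). The part of these cells was likewise not tested.

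Of the 8 eosinophil markers, Ear1 had 0 counts in 48 of 48 libraries, and the highest count in any library was 1 for Epx, 2 for Ear6, 7 for Siglecf, 9 for Prg2, 16 for Ccr3 and 42 for Ear2. Ear2 was at 0 in 4 libraries and Prg2 in 15. The summed CPM of the 8 eosinophil markers ranged from 0.149 to 0.742 in controls and from 0.357 to 1.46 with tunicamycin in C57BL/6J at 24 h. In DBA/2J it ranged from 8.78 to 15.6 and from 9.04 to 18.2. Alox15, which other cells also express, had the highest count of the 8 in any of the 48 libraries, 2194. The summed B and plasma cell markers in controls and treated slices at 24 h ranged from 2.36 to 3.63 and from 3.17 to 7.18 CPM in C57BL/6J. The DBA/2J ranges were 6.4 to 14.3 and 5.07 to 9.75 CPM. Both eosinophil markers that could be tested under normoxia against 6 h controls, Ear2 and Alox15, rose (median 2.10), as did 4 of 6 B and plasma cell markers (0.81), where 65.8% of all genes were called in either direction. In the step to normoxia-hyperoxia, where Il5ra fell, Ear2 and Alox15 fell (median -2.02), while of the B and plasma cell markers 1 of 6 rose and 1 fell, where 73.5% of all genes were called. The summed eosinophil markers of DBA/2J lay between 48.7 and 91.1 CPM under normoxia and between 5.67 and 13.2 CPM under normoxia-hyperoxia, and those of C57BL/6J lay below 1 CPM in both. In DBA/2J, the strain with the larger fall of Il5ra, the groups of this sum did not overlap. No marker but Alox15 had more than 42 counts in any library, so the DBA/2J sum under normoxia was mostly Alox15. Siglecf, Epx, Ear1 and Ear6 were at 0 in all libraries of both DBA/2J groups. With time under cyclosporin A, where Il5ra rose, 1 of 1 eosinophil and 4 of 5 B and plasma cell markers tested fell, where 70% of all genes were called. The counts of B and plasma cell markers called under normoxia and with time are near these shares. The part of these cells in the levels of Il5ra was not tested.

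Clip4, the CAP-Gly protein, had 4.24, 5.28 and 3.52 CPM in C57BL/6J with tunicamycin for 24 h, and 14.6, 10.4 and 16.2 CPM in the controls. In DBA/2J it had 30.01, 20.6 and 20.1 CPM with tunicamycin and 110.1, 38.2 and 73.5 CPM in the controls. The groups did not overlap, and DBA/2J control replicate 2 was again the lowest control. The log2 fold change was -1.64 in C57BL/6J (SE 0.40) and -1.63 in DBA/2J (SE 0.34).

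In DBA/2J, Clip4 was highest at 24 h with cyclosporin A (81.9 ± 29.2 CPM) and in controls (73.9 ± 35.98 CPM), followed without overlap by normoxia (32.8 ± 2.5 CPM) (SD, n = 3). The treated group stood lower at 23.6 ± 5.6 CPM and overlapped the 6 h groups of its strain, which ranged from 18.7 ± 4.2 to 20.3 ± 5.1 CPM (SD, n = 3). C57BL/6J stood lower in each condition, at 13.7 ± 3.0 CPM in 24 h controls, 12.7 ± 2.5 CPM with cyclosporin A at 24 h, 9.41 ± 2.17 CPM under normoxia and 5.66 to 6.34 CPM in the means at 6 h (SD, n = 3). Its treated group stood at 4.34 ± 0.88 CPM (SD, n = 3), with a mean below those at 6 h and overlapping them. Normoxia-hyperoxia gave the lowest level in each strain, 5.56 ± 0.94 CPM in DBA/2J and 1.49 ± 0.69 CPM in C57BL/6J (SD, n = 3).

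Clip4 rose with time under cyclosporin A by 1.22 on the log2 scale (SE 0.28, edgeR adjusted p = 0.00275), with separate groups in DBA/2J and a slight overlap in C57BL/6J, between 10.01 CPM at 6 h and 9.92 CPM at 24 h. It rose under normoxia against 6 h controls by 0.74 (SE 0.11, edgeR adjusted p = 2.42e-05). From normoxia to normoxia-hyperoxia it fell by 2.68 (SE 0.17, edgeR adjusted p = 5.12e-09), to a log2 level of -1.89 against 6 h controls (SE 0.17, edgeR adjusted p = 8.18e-07). In the last 3 comparisons the groups separated in both strains. Of 14 other CAP-Gly and plus-end tracking genes, 1 was called at 24 h of tunicamycin: Tbcb, a tubulin-folding cofactor, rose by 0.29 (edgeR adjusted p = 0.0215). Clip1 had a log2 fold change of -0.13 there (edgeR adjusted p = 0.166). Of the 14, 0 rose and 11 fell under normoxia against 6 h controls, where 65.8% of all genes were called in either direction, and Clip1 stood at -0.22 (edgeR adjusted p = 0.0146).

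Ksr2, the kinase scaffold, had 2.50, 2.62 and 1.76 CPM in C57BL/6J with tunicamycin for 24 h, and 4.83, 5.33 and 3.96 CPM in the controls. In DBA/2J it had 5.80, 4.47 and 5.22 CPM with tunicamycin and 19.8, 8.17 and 15.7 CPM in the controls. Every treated library stood below all controls of its strain, and DBA/2J control replicate 2 was the lowest control here too. The log2 fold change was -1.04 in C57BL/6J (SE 0.30) and -1.47 in DBA/2J (SE 0.27).

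Unlike Il5ra and Clip4, Ksr2 differed little between 6 h and 24 h in controls, with 4.54 ± 0.783 and 4.71 ± 0.696 CPM for C57BL/6J and 10.97 ± 1.79 and 14.6 ± 5.89 CPM in DBA/2J (SD, n = 3). The treated groups at 24 h, 2.29 ± 0.46 and 5.17 ± 0.67 CPM, were thus also below the 6 h level. In C57BL/6J the treated group was the lowest of the 8 and overlapped normoxia-hyperoxia at 2.54 ± 0.04 CPM, and in DBA/2J it was the lowest with normoxia-hyperoxia next at 7.17 ± 0.28 CPM (SD, n = 3). Normoxia was highest in each strain, 13.95 ± 1.08 CPM for C57BL/6J and 22.8 ± 1.06 CPM for DBA/2J (SD, n = 3). The remaining groups, with a drug at 6 h or cyclosporin A at 24 h, lay between 4.66 and 5.34 CPM for C57BL/6J and between 10.4 and 11.4 CPM for DBA/2J as means, and overlapped the controls.

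From 6 h to 24 h of cyclosporin A the log2 fold change of Ksr2 was -0.23 (SE 0.18, edgeR adjusted p = 0.253). Ksr2 rose under normoxia against 6 h controls by 1.36 (SE 0.10, edgeR adjusted p = 2.67e-08). From normoxia to normoxia-hyperoxia it fell by 2.15 (SE 0.08, edgeR adjusted p = 5.64e-12), to -0.75 against 6 h controls (SE 0.12, edgeR adjusted p = 0.00024). Within both strains the groups of these 3 comparisons did not overlap. The fall from normoxia was larger in C57BL/6J, -2.46 against -1.84, a strain difference of 0.62 (SE 0.17, edgeR adjusted p = 0.0201). In a single fit of all 48 libraries that difference was 0.71 with an edgeR adjusted p of 0.179. The RAS-RAF-MEK-ERK list held 0 of 20 called genes at 24 h of tunicamycin, with Ksr1, the closest relative, at -0.06 (edgeR adjusted p = 0.838). The signs for Ksr1 were opposite to those for Ksr2: its log2 change under normoxia against 6 h controls was -0.91 (edgeR adjusted p = 1.30e-05) and it rose by 1.17 from normoxia to normoxia-hyperoxia (edgeR adjusted p = 1.62e-05).

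**Figure D3:**
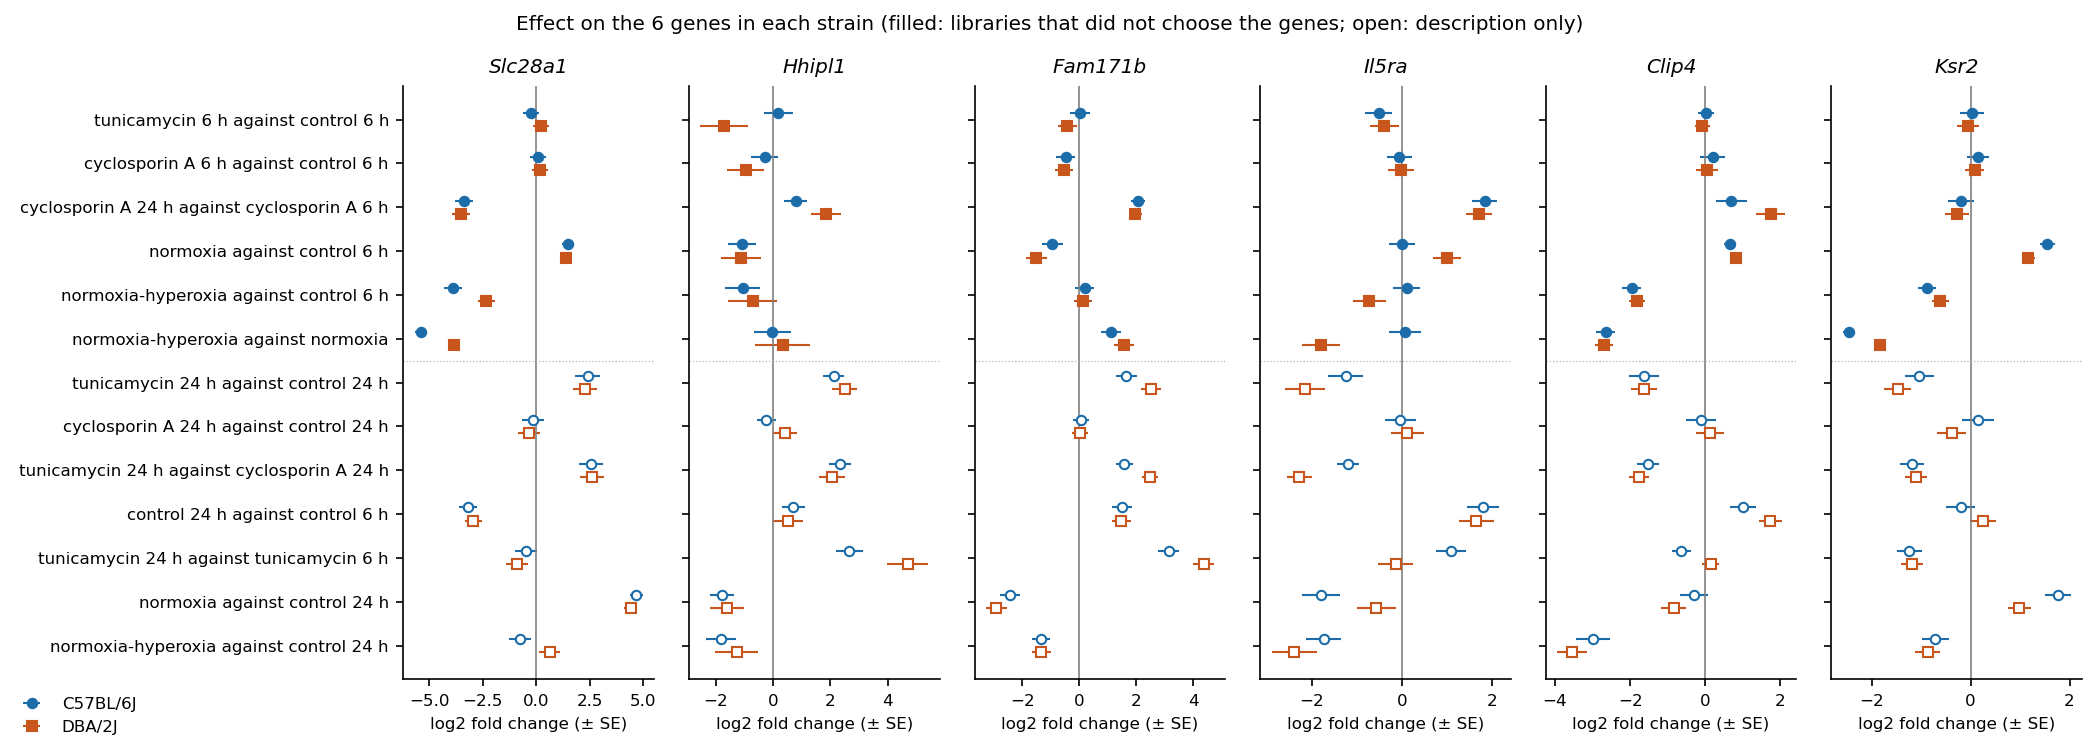
Log2 fold change with its SE for each gene in each strain (circles C57BL/6J, squares DBA/2J), one row per comparison; filled symbols use libraries that did not choose the genes and open symbols are a description. With tunicamycin at 24 h the 3 higher genes lie between 1.65 and 2.52 and the 3 lower genes between -2.14 and -1.04, and with cyclosporin A at 24 h all 6 lie within -0.38 to 0.42; for Hhipl1 the DBA/2J libraries of tunicamycin at 6 h and of normoxia-hyperoxia held at most 3 counts each.

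After 6 h with the same drug no member was called. Of the 6, 0 passed the threshold for tunicamycin against control at 6 h, where 0% of 16551 genes did (281 at an unadjusted p under 0.05), and 0 had a strain difference in the effect, again with 0% of all genes (288 unadjusted). Slc28a1 stood at -0.01, Ksr2 at -0.02, Clip4 at -0.03, Fam171b at -0.20, Il5ra at -0.45 and Hhipl1 at -0.75 on the log2 scale. Each adjusted p rounded to 1 (edgeR quasi-likelihood test, Benjamini-Hochberg), and the smallest unadjusted p was 0.0626, for Il5ra, whose 3 treated C57BL/6J libraries lay below their controls while those of DBA/2J overlapped. The value of Hhipl1 rests in DBA/2J on a group at the floor. DESeq2 called 0 genes for the effect over both strains and 1 for the strain difference.

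Cyclosporin A, an inhibitor of calcineurin and the second nephrotoxic drug of the design, gave no call either. At 6 h 0 of the 6 genes were called for the effect or for its strain difference, where 0% of 16538 genes were called for either (734 and 407 unadjusted), although DESeq2 called 45 genes for the effect. Fam171b had the largest ratio of effect to error, -0.51 on the log2 scale (SE 0.22, edgeR adjusted p = 1). At 24 h, as a description, cyclosporin A against control gave -0.24 for Slc28a1, 0.10 for Hhipl1, 0.04 for Fam171b, 0.04 for Il5ra, 0.00 for Clip4 and -0.12 for Ksr2. Tunicamycin against cyclosporin A at 24 h gave 2.59, 2.21 and 2.04 for the higher genes in the same order, and -1.73, -1.64 and -1.15 for the lower ones. Each shares its control or tunicamycin libraries with the comparison that chose the genes.

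With time under cyclosporin A 5 of the 6 genes moved. Time in culture and length of exposure to the drug cannot be told apart there. Under cyclosporin A from 6 h to 24 h all but Ksr2 were called, where 70% of 17149 genes were, so 5 of 6 is near the background. For the strain difference in this effect 0 of the 6 were called, against 0.262% of all genes. As a description, controls from 6 h to 24 h gave -3.06 for Slc28a1, 0.63 for Hhipl1, 1.49 for Fam171b, 1.73 for Il5ra, 1.37 for Clip4 and 0.03 for Ksr2. Under tunicamycin from 6 h to 24 h the values were -0.68 for Slc28a1, 3.76 for Fam171b, 0.48 for Il5ra, -0.25 for Clip4 and -1.21 for Ksr2. Hhipl1 went from 11 to 27 counts to 50 to 276 counts in C57BL/6J and from 0 to 3 counts to 53 to 58 counts in DBA/2J.

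Under normoxia against 6 h controls 6 of 6 were called, where 65.8% of 16819 genes were, and 0 of 6 had a strain difference, where 3.66% did. Slc28a1, Ksr2, Clip4 and Il5ra were higher and Fam171b and Hhipl1 lower. The normoxia slices were kept longer than the 6 h controls, so duration and oxygen cannot be told apart in this comparison or in that of normoxia-hyperoxia with the same controls. Under normoxia-hyperoxia against 6 h controls 3 of 6 were called, all lower: Slc28a1 at -3.11 (SE 0.29, edgeR adjusted p = 1.01e-06), Clip4 and Ksr2, where 44.9% of 16841 genes were called. The strain difference in that effect was called for 0 of 6 and for 0.232% of all genes. From normoxia to normoxia-hyperoxia, 5 of 6 were called, all but Hhipl1, beside 73.5% of 17228 genes. A strain difference in that last effect was called for 3 of 6, Slc28a1, Il5ra and Ksr2, beside 18.2% of all genes. As a description, against 24 h controls normoxia gave 4.55 for Slc28a1, -1.68 for Hhipl1, -2.68 for Fam171b, -1.18 for Il5ra, -0.57 for Clip4 and 1.37 for Ksr2. Normoxia-hyperoxia against the 24 h controls gave -0.07 for Slc28a1, -1.35 for Fam171b and -2.06 for Il5ra. The values were -3.27 for Clip4, -0.79 for Ksr2 and -1.54 for Hhipl1, which was at the floor in DBA/2J.

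The strains differed in the level of 4 of the 6 genes over the 36 libraries that did not choose them, where 62.5% of 18294 genes differed. Clip4 was higher in DBA/2J by 1.85 on the log2 scale (SE 0.13, edgeR adjusted p = 1.71e-12) and Ksr2 by 1.07 (SE 0.09, edgeR adjusted p = 8.48e-12), each in 6 of 6 conditions. Hhipl1 was lower in DBA/2J, at -1.96 (SE 0.27, edgeR adjusted p = 2.60e-07), also in 6 of 6 conditions, in which DBA/2J was at the floor for tunicamycin at 6 h and normoxia-hyperoxia. Il5ra was also lower, at -0.84 (SE 0.14, edgeR adjusted p = 3.39e-06), in all conditions but normoxia, where the value was 0.11. Slc28a1 at 0.20 (edgeR adjusted p = 0.318) and Fam171b at 0.08 (edgeR adjusted p = 0.574) did not pass the threshold. This test treats the libraries of a strain as independent, and whether they share mice is not given. GRCm38 is the genome of C57BL/6J, and the part of sequence differences of DBA/2J in these levels was not tested.

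The unfolded protein response score, the mean log2 CPM of the 20 listed genes, lay above the mean of the strain's controls by 0.61, 0.58 and 0.15 in the 3 C57BL/6J libraries and by 0.69, 0.76 and 0.54 in those of DBA/2J. C57BL/6J replicate 3, with the lowest score, also had the smallest differences for Slc28a1 (0.91), Hhipl1 (1.09), Fam171b (0.94) and Il5ra (-0.86). For Clip4 (-1.92) and Ksr2 (-1.36) that library had the largest differences of its group. It also had the lowest total of the 6 treated libraries, 13643450 counts, and their lowest proximal tubule marker sum, 252 CPM. Per 1000 CPM of these markers its Slc28a1 stood at 4.65 CPM, beside 3.81 and 4.75 CPM in replicates 1 and 2 of its group. C57BL/6J replicate 2 had the largest values of all 6 treated libraries for Slc28a1 (3.26) and Hhipl1 (2.77), beside a score of 0.58. The score was computed from the same libraries, and its part in the spread was not tested.

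**Figure D4:**
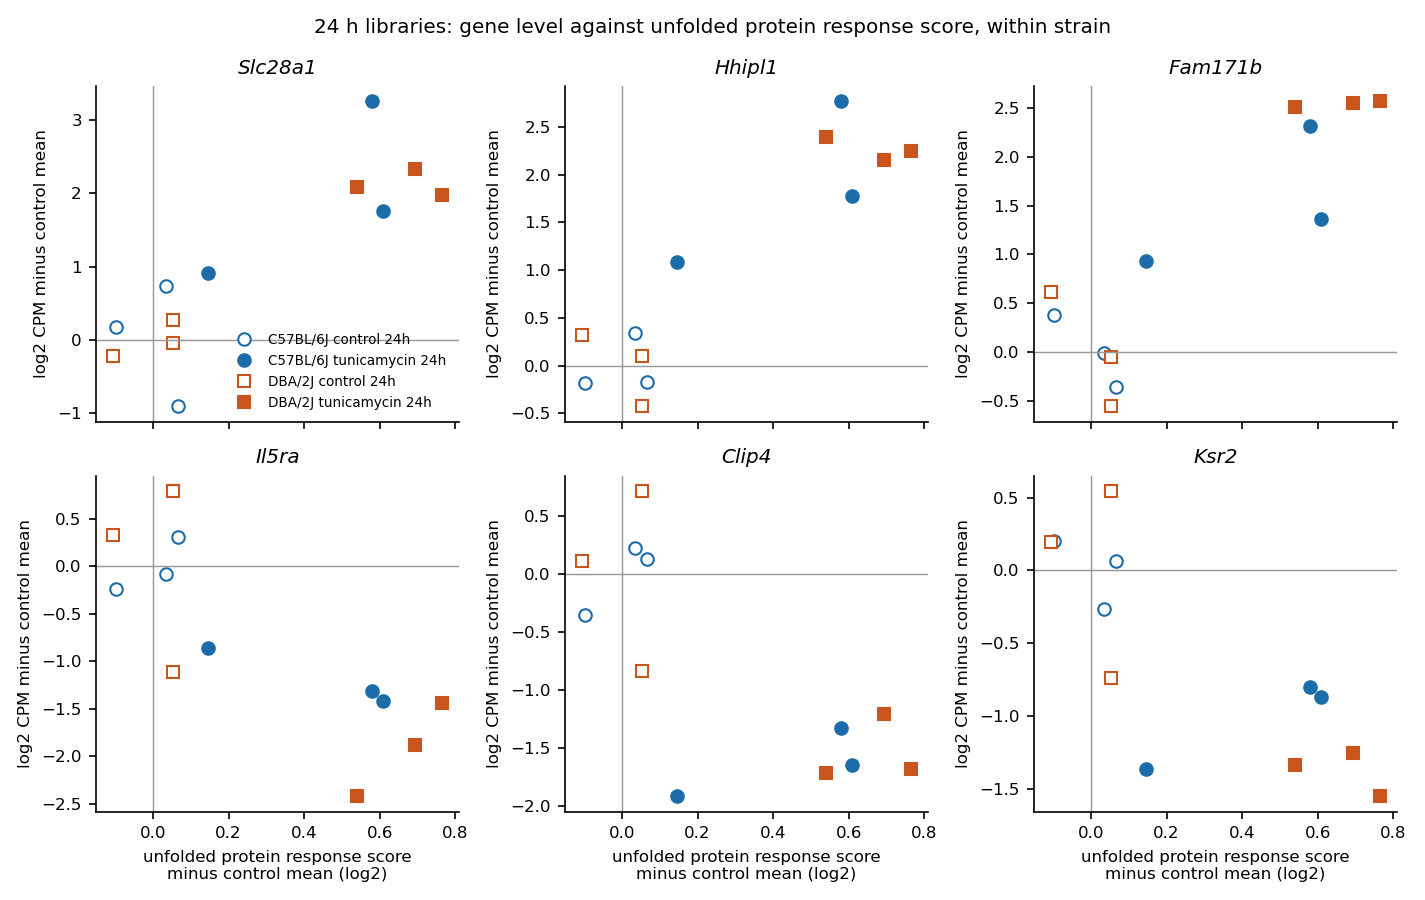
Log2 CPM of each gene against the unfolded protein response score, both minus the mean of the 24 h controls of the strain, for the 6 control (open) and 6 tunicamycin (filled) libraries at 24 h; circles are C57BL/6J and squares DBA/2J. The filled circle at a score of 0.15 is C57BL/6J replicate 3, nearest to the controls for Slc28a1, Hhipl1, Fam171b and Il5ra and, within its group, farthest from them for Clip4 and Ksr2.

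Across the means of the 16 groups, which share strains, culture times and drugs, Pearson's r of log2 CPM was 0.73 between Hhipl1 and Fam171b, 0.71 between Clip4 and Ksr2 and -0.74 between Hhipl1 and Ksr2. Slc28a1 lay between -0.49, with Il5ra, and 0.47, with Ksr2. Il5ra lay between that value and 0.43, with Hhipl1. They describe these 16 means only. Of the 16, 4 are the 24 h control and tunicamycin groups that chose the genes, so the signs follow in part from the choice.

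Among 12227 genes (12228 for Hhipl1) with a symbol and a mean log2 CPM of at least 1, the profile most like that of Slc28a1 over the 16 means was that of Mettl7b (r = 0.93), followed by Nat8f6 and Hlf (both 0.93). Lman1, an endoplasmic reticulum cargo receptor, was most like Hhipl1 (0.90), before Tmem167b and Stard3nl (both 0.89). Itm2c was most like Fam171b (0.98), before Ibtk (0.95) and Zfp57 (0.93). For Il5ra these were Mettl14 (0.87), Zfp638 (0.86) and Pign (0.86), the lowest values of the 6. Clip4 was closest to Adap1 (0.95), Mocos (0.94) and Psmd6 (0.93), and Ksr2 to Nat2, Palm3 and Sap30l (all 0.94). Only 6 of these 18 were also among the 3 most like over the 48 single libraries: Nat8f6, Tmem167b, Ibtk, Mocos, Psmd6 and Palm3.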

How the data were processed

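RNA-seq counts of 48 kidney slice libraries were analysed as whole-number counts per gene, which the authors deposited without normalization in 1 table of 55487 Ensembl gene IDs. The submitters' processing notes name bcl2fastq 2.20.0, FastQC 0.11.8, STAR 2.7.9a, featureCounts 1.5.1 and GRCm38, without their settings. Symbols matched 55141 IDs. Groups came from the labels.

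The 6 genes and all lists were chosen with earlier results of these data known. Each comparison was fitted on its own 12 libraries with edgeR 4.0.16 (R 4.3.3, limma 3.58.1), using TMM factors, edgeR's filter on low counts, a mean per group and the robust quasi-likelihood F test. P-values were adjusted by Benjamini-Hochberg over all genes tested, with a threshold of 0.05. Strain levels were fitted on the 36 libraries that did not choose the genes. SE denotes a standard error of a log2 fold change worked back from its test. It is the size of the change divided by the square root of the quasi-likelihood F statistic. CPM was computed from the deposited counts and library totals. A group with at most 3 counts in each library was taken to lie at the floor.

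Genes named beside the 6 were the 3 most correlated with each over the group means (log2 CPM, prior count 2), those at ranks 4 to 6 of the selection (1 of them is not reported here), the list genes called at 24 h of tunicamycin (at most 3 per direction), and Csf2rb, Hhip, Fam171a1, Ksr1, Clip1 and Slc29a1. Fam171a2 and the eosinophil markers with their counts were named after their values were seen. Alternatives were DESeq2's median-ratio factors, no filter, DESeq2 1.42.0, 1 fit of all 48 libraries, a block for the replicate number and leaving out each library. Tested on simulated data for tunicamycin at 6 h (16243 genes), the fit recovered 81.4% of genes changed by 1 and 95.8% of those changed by 2 on the log2 scale, with 8 false calls. The simulated libraries were independent, had the same mean in both strains and had randomly drawn genes changed. These rates therefore need not hold for the 6 genes. Protein sequences were not used here.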

Additional observations from a re-analysis of the deposited data

Results flagged for a closer look

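In 3 of the 6 genes the change from normoxia to normoxia-hyperoxia differed between the strains by the test of the difference itself, given here as the DBA/2J effect minus the C57BL/6J effect on the log2 scale; of all 17228 genes, 18.2% did. Slc28a1 differed by 1.55, with a smaller fall in DBA/2J (edgeR adjusted p = 0.0249). Il5ra differed by -1.86, with a fall in DBA/2J that C57BL/6J did not show beyond its spread (edgeR adjusted p = 0.0295). Ksr2 differed by 0.62, with a smaller fall in DBA/2J (edgeR adjusted p = 0.0201). The cause was not tested. Without the shallowest library, DBA/2J normoxia-hyperoxia replicate 2, Slc28a1 differed by 1.36 (edgeR adjusted p = 0.0528) and Il5ra by -1.89 (edgeR adjusted p = 0.0537), and the call of Ksr2 remained. In a single fit of all 48 libraries 1 of the 3 calls was left, that of Il5ra, with edgeR adjusted p = 0.16 for Slc28a1 and 0.179 for Ksr2.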

How the results depend on the processing

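The calls of the 6 genes for time under cyclosporin A and for normoxia-hyperoxia against either reference held in every alternative run. Those for strain held too, but none of their alternatives had a block, so these runs do not test an effect of shared mice. Under normoxia against 6 h controls the calls of Hhipl1 and Il5ra did not hold in every run, as given in the report, and the cause was not tested. Strain differences from normoxia to normoxia-hyperoxia numbered 3 among the 6 genes, 1 (Il5ra) in a single fit of all 48 libraries, and 1 to 3 when a library was left out. Counts over all genes moved more. Without a filter, the strain differences were 1 gene for tunicamycin at 6 h, 188 for time under cyclosporin A, 1536 for normoxia and 712 for normoxia-hyperoxia against 6 h controls, where the reported fits gave 0, 45, 616 and 39. DESeq2 gave 1, 401, 1167 and 252, and the single fit gave 483 for time under cyclosporin A and 100 for normoxia-hyperoxia. For cyclosporin A at 6 h no filter gave 4 called genes and DESeq2 gave 45, and for tunicamycin at 24 h they gave 395 and 526 beside 233. Leaving out 1 library gave 0 to 1 called genes for cyclosporin A at 6 h, strain differences of 12 to 343 for time under cyclosporin A, 241 to 1125 for normoxia and 11 to 80 for normoxia-hyperoxia against 6 h controls, and 78 to 344 called genes at 24 h of tunicamycin, 9 to 18 of them in the lists. Values near 0 changed sign when a library was left out: at 6 h of tunicamycin Slc28a1 ranged from -0.26 to 0.20, Clip4 from -0.15 to 0.067 and Ksr2 from -0.17 to 0.086, at 6 h of cyclosporin A Slc28a1 from -0.086 to 0.35, Il5ra from -0.15 to 0.092 and Clip4 from -0.13 to 0.29, and from normoxia to normoxia-hyperoxia Hhipl1 from -0.33 to 0.41. The replicate block raised the strain differences for normoxia against 6 h controls from 616 to 1462 and ended the call of Il5ra there; it changed no other call of the 6 genes. Residuals of same-numbered libraries correlated over 0.1 in 3 to 5 of 6 pairs per tested comparison. Within DBA/2J all 3 pairs did so in 4 of 6 tested comparisons, and within C57BL/6J in 1 of 6. As not all pairs of a comparison did, the reported fits did not pair the libraries, and the strain comparison has no block. These correlations do not show that same-numbered libraries came from separate mice. If they share mice, the p-values of the strain comparison are too small. Of the 18 most correlated genes 6 stayed over 48 single libraries. Depth limits Hhipl1 most, with at most 3 counts per library in 2 DBA/2J groups.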
